A study of Mus musculus with 9 samples.

Results

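The genes described here are 35 genes that mark endothelial cells, the cells that line the heart's blood vessels and chambers. They were taken by symbol: each had to have a row in all 3 deposited full tables, and 35 of 35 did, out of 15779 genes in the tables. They were placed in 4 groups by where in the vascular tree they are known to be enriched, with 22 pan-endothelial, 5 capillary, 5 arterial and 3 venous or endocardial genes. Poly(A) RNA was sequenced from pieces of whole heart from adult C57BL/6J mice, in 3 groups of 3 libraries. The wild-type mice had been given saline. The saline mutants carried Mybpc3 R946X on both alleles and had also been given saline. The treated mutants carried the same alleles and had been given exABE8e, a name the labels do not define further, at high dose. R946X puts a premature stop codon in Mybpc3, whose product, cardiac myosin-binding protein C, sits on the thick filament, and the mutant mice were made as a model of hypertrophic cardiomyopathy. The series describes adenine base editors, which turn A into G at a guided site, carried by adeno-associated virus 9 for expression in cardiomyocytes, so the endothelial cells described here are not the cells the vector was meant to express in. The labels give neither the amount behind "high dose" nor the age or sex of the mice, and they do not say how the hearts were sampled beyond the tissue piece.

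Endothelial cells are a large share of the cells of the mouse heart. They hold together through VE-cadherin, PECAM-1 and claudin-5, and they depend on signals from their neighbours: VEGF acts through Kdr with Flt1 as a decoy, angiopoietins act through Tek with Tie1, and apelin acts through its receptor Aplnr. Transcription factors of the ETS and SOXF families keep endothelial identity, while Notch signalling through Dll4 and Notch4 and the ligand ephrin-B2 mark the arterial side. Capillary cells of the heart carry Gpihbp1, which holds lipoprotein lipase on the vessel wall. Venous and endocardial cells are richer in Vwf, Emcn and Plvap.

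ETS factors bind a core that can be written GGAAG on one strand and CTTCC on the other. The 250 bases before the start site are shown for Apln, the only one of the 35 genes that passed the test in any comparison, for Dll4, an arterial gene whose libraries did not overlap between saline mutants and wild type, and for Tie1, a receptor gene whose libraries overlapped in all 3 comparisons. Sequences are from RefSeq on GRCm38.p6, written 5′ to 3′ along the gene, with the ETS core in capitals on either strand.
Apln (chrX:48034854-48035103, minus strand): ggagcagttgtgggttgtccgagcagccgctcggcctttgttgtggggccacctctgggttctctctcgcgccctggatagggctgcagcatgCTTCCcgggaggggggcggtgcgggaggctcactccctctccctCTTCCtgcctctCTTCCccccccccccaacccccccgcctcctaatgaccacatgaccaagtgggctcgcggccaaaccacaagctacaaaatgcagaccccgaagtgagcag
Dll4 (chr2:119325534-119325783, plus strand): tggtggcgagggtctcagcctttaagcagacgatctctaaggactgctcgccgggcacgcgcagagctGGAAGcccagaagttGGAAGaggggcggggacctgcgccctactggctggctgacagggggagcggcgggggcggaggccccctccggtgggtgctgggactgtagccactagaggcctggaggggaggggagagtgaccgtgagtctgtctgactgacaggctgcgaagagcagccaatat
Tie1 (chr4:118489850-118490099, minus strand): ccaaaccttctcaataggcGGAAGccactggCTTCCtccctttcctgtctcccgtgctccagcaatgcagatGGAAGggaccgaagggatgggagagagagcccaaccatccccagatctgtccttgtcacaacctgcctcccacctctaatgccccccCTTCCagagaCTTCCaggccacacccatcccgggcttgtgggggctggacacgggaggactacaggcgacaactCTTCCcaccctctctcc
The core occurred 3 times in the Apln window, 2 times in that of Dll4 and 6 times in that of Tie1. RefSeq windows could be matched for 17 of the 35 genes, and 16 of their 21 windows (76.2%) held the core, against 64.1% of all 32851 windows of the same length. A match describes letters in a window, not binding.

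All 35 genes were above 0 in all 9 libraries, with values from 8 to 347, so no gene was lost to the filter on low values. The deposited values are whole numbers that sum to nearly the same total in each library (999152 to 999382). No label names their unit. Across 13043 genes they had a Spearman correlation of -0.04 with transcript length, given as a description. Mybpc3 was 133 to 186 in the saline mutants, 1024 to 1374 in the treated mutants and 1510 to 2039 in wild type, so the targeted gene follows the labels. Mitochondrial transcripts took 17.0% to 24.1% of the total. Xist was above 0 in wild type replicate 1, saline mutant replicate 3 and treated replicate 1, and the last of these also had Ddx3y at 38, so 1 library in each group stands apart by sex-linked transcripts. In heart pieces of mixed cells, fewer endothelial cells and less of a transcript per endothelial cell cannot be told apart.

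Saline mutants were compared with wild type to ask what the loss of Mybpc3 changes in the heart. Apln fell to 29.8% of the wild-type mean in saline mutants, and it was the 1 gene of 35 that passed the test (limma, Benjamini-Hochberg adjusted p under 0.05 over all genes tested). By that rule 3.15% of all 13632 genes were called lower and 7.71% were called in either direction. Called higher were 0 of the 35, beside 4.56% of all genes. The other 34 endothelial genes were not called. At an unadjusted p under 0.05, 2 of the 35 were lower (Apln and Dll4) and 0 higher, beside 7.76% and 12.1% of all genes, or 19.9% in either direction. Libraries did not overlap for 3 of the 35, all lower (Apln, Dll4 and Cdh5), beside 8.78% of all genes in that direction and 21.6% in either. Of the 35, 28 lay below 0 on the log2 scale, where 40.9% of all genes did. Their median log2 difference was -0.16, beside 0.07 over all genes tested. Single hearts of each saline group spanned more than this offset, which is itself taken between group means of 3 libraries. The median of the 35 genes relative to the wild-type mean was -0.09, 0.16 and -0.07 in the 3 wild-type hearts. It was -0.22, -0.27 and 0.02 in the saline mutants and -0.16, -0.04 and -0.03 in the treated mutants. Centred on all 9 libraries, the SD of such a median within a group was 0.139. Wild type replicate 2 was the highest library of its group for 22 genes and saline mutant replicate 3 for 26 genes. Without wild type replicate 2 the median difference was -0.07, with 25 genes below 0. Without saline mutant replicate 3 it was -0.27, with 29 genes below 0, and without the 3 libraries with Xist it was -0.28, with 32.

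**Figure D1:**
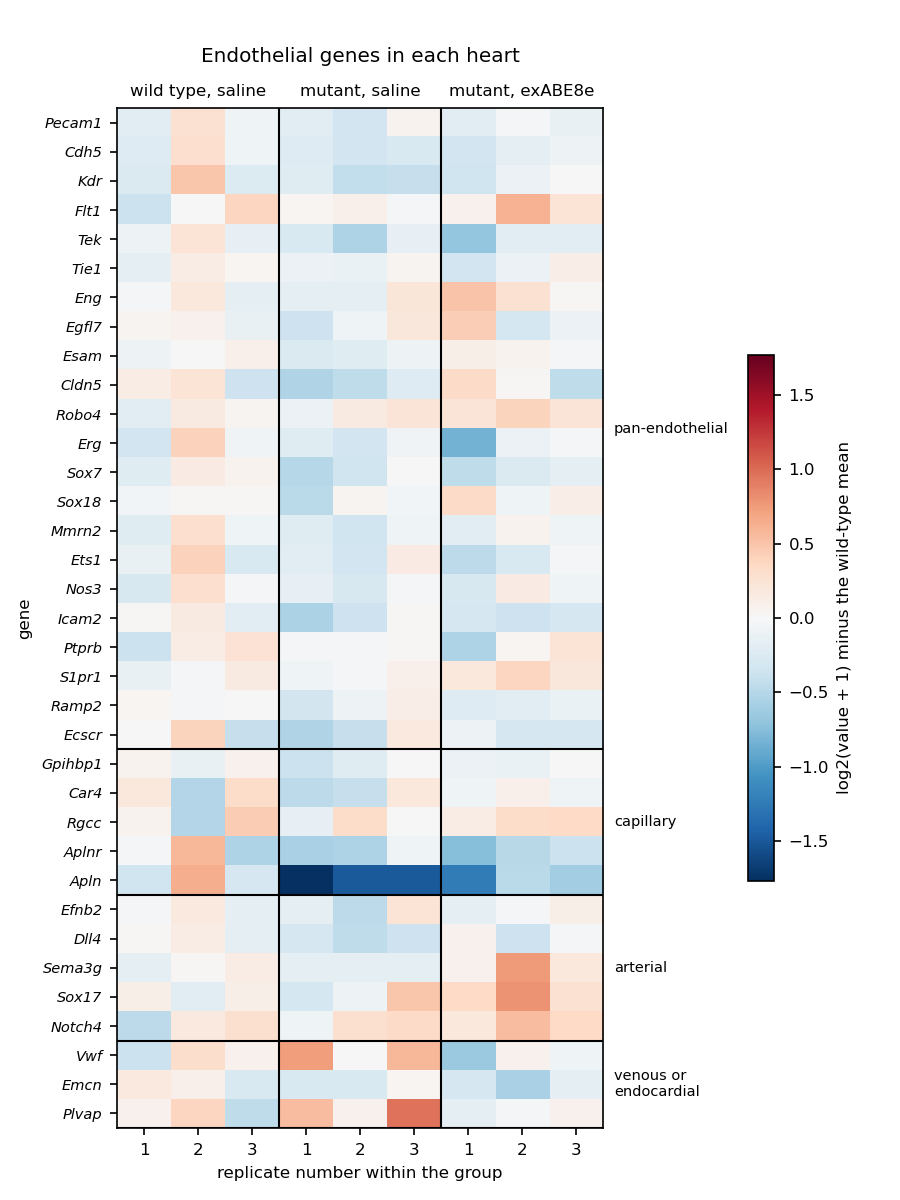
Each cell shows log2(value + 1) of 1 gene (rows, in 4 groups) in 1 heart (columns, by group and replicate) minus the mean of the 3 wild-type hearts. Apln is the darkest blue row in the saline mutants, while wild type replicate 2 and saline mutant replicate 3 are above their own groups for 22 and 26 of the 35 genes.

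The standard errors of the 35 differences ranged from 0.101 (Esam) to 0.267 (Plvap) on the log2 scale, with a median of 0.16. For 32 of 35 genes the 95% interval of the difference between saline mutants and wild type lay within a 2-fold change in either direction, the others being Apln, Aplnr and Plvap. For 19 it lay within a 1.5-fold change.

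**Figure D2:**
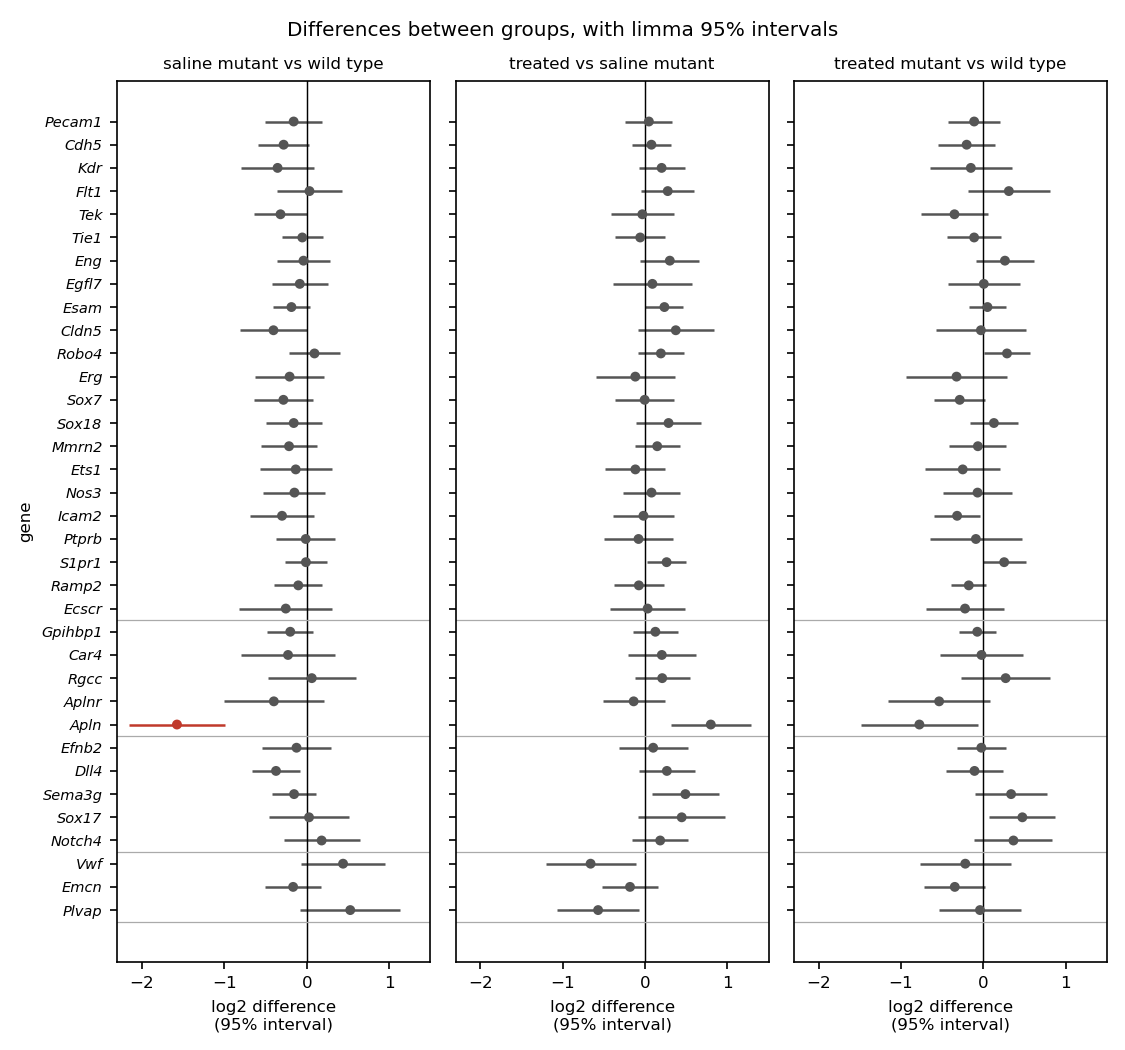
Points show the log2 difference of each of the 35 genes in the 3 comparisons, with limma 95% intervals as bars and lines between the gene groups; red marks an adjusted p under 0.05. Apln in saline mutants, at -1.58, is the only red point, and its difference between treated and saline mutants lies on the other side of 0, at 0.80.

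Apelin, the product of Apln, is a secreted peptide made by sprouting and capillary endothelial cells and acts on vessels and on cardiac contraction. Apln lies on chromosome X from 48025146 to 48034853 (GENCODE M21, GRCm38), on the minus strand, and is protein coding. Its values were 23, 47 and 24 in wild type (31.3 ± 13.6, SD, n = 3), 8, 10 and 10 in the saline mutants (9.33 ± 1.15) and 12, 21 and 19 in the treated ones (17.3 ± 4.73). No saline mutant reached the lowest wild-type heart, and the treated hearts lay between both saline groups without overlapping either. The log2 difference between saline mutants and wild type was -1.58 (SE 0.256, limma adjusted p 0.00716), and it remained called in 17 of 18 alternative fits. The exception was limma's own variance step with no floor for rounding, where the adjusted p was 0.0511, and the range over the alternatives began at 0.000709. Although wild type replicate 2 held the highest value, leaving it out gave -1.25 (limma adjusted p 0.00398), and without the 3 libraries with Xist the difference was -1.80 (0.0295). In the authors' deposited table the log2 fold change of Apln was -1.81, and the gene was among those they selected. Here and below, their selected genes stayed under 0.05 in a column that equals unadjusted p-values, with absolute log2 fold changes of at least 0.586. The p-value part of this rule is looser than the one used here, while no fold-change limit was used here.

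With treatment, the Apln difference from saline mutants was 0.80 (SE 0.214, 95% interval 0.31 to 1.29), higher in 3 of 3 treated hearts than in any saline mutant, but the limma adjusted p over all genes was 0.359 and it was called in 0 of 18 alternatives (adjusted p from 0.0988 to 0.992). Treated mutants stood at 55.3% of the wild-type mean, with a log2 difference of -0.78 (SE 0.306, limma adjusted p 0.353, from 0.15 to 0.721 over the alternatives). The authors' deposited table selected Apln in this comparison too, at a log2 fold change of -0.86, and did not select it in treated against saline mutants, at 0.93. Both statements about treated hearts use groups that also enter the comparison of saline mutants with wild type, so they are not independent of it.

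The receptor gene of apelin, Aplnr, was 89, 138 and 62 in wild type, 61, 62 and 87 in the saline mutants and 54, 65 and 70 in the treated ones. The groups overlapped, and the wild-type spread was wide (96.3 ± 38.5). The log2 differences from wild type were -0.40 in saline mutants (SE 0.266, limma adjusted p 0.467) and -0.54 in treated mutants (SE 0.267, limma adjusted p 0.472). Without wild type replicate 2 they were -0.10 and -0.24, and without wild type replicate 3 they were -0.68 and -0.81. The authors' deposited table selected Aplnr in treated mutants against wild type, at a log2 fold change of -0.62, by the same unadjusted values.

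The other capillary genes did not pass the test in any comparison. Gpihbp1, the anchor of lipoprotein lipase, was 106, 93 and 107 in wild type, 78, 88 and 101 in the saline mutants and 95, 94 and 101 in the treated ones. Car4, a carbonic anhydrase on the capillary surface, was 24 to 44, 25 to 40 and 33 to 37 in the same groups. Rgcc, a cell-cycle regulator enriched in cardiac capillaries, was 29 to 58, 38 to 53 and 46 to 54. All 3 genes thus overlapped between all pairs of groups. The summed level of the 5 capillary genes was 295 to 331 in wild type, 210 to 280 in the saline mutants and 240 to 277 in the treated ones. Both mutant groups lay below wild type in this sum without overlap, but the sum includes Apln and Aplnr. Without these genes it was 146 to 209, 141 to 183 and 174 to 188, and all groups overlapped.

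**Figure D3:**
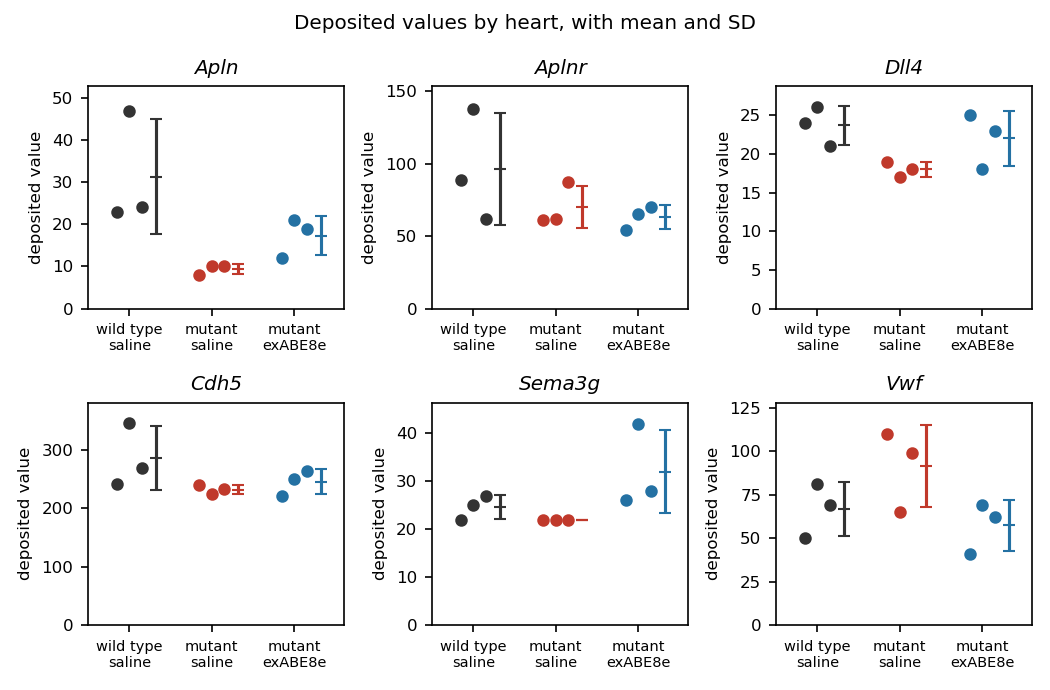
Points are the deposited values of 6 genes in each of 3 hearts per group, on axes from 0, with the group mean and SD beside them. For Apln the saline mutants (8 to 10) and treated mutants (12 to 21) both lie below wild type (23 to 47), while for Dll4 and Cdh5 the saline mutants lie below wild type by narrow gaps and for Aplnr, Sema3g and Vwf they overlap it.

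Among the arterial genes none was called. Dll4, the Notch ligand of arterial and sprouting cells, was 24, 26 and 21 in wild type, 19, 17 and 18 in the saline mutants and 25, 18 and 23 in the treated ones. Saline mutants lay below wild type without overlap, and the treated hearts spanned both. Its log2 difference was -0.37 (SE 0.126, limma adjusted p 0.135). It passed the test with upper-quartile scaling alone (-0.46, adjusted p 0.0383), in a range of adjusted p from there to 0.38. Its exons share 5.56% of their bases with an opposite-strand transcript, and whether reads were counted by strand is not given in the sources used here.

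Sema3g, a semaphorin secreted by arterial endothelium, was 22, 25 and 27 in wild type, 22 in each saline mutant and 26, 42 and 28 in treated mutants. Treated hearts were above saline mutants without overlap (log2 difference 0.49, SE 0.179, limma adjusted p 0.512), and 5.48% of all genes were higher in that way. Without treated replicate 2, which held the highest value, the difference was 0.28. Sox17, an arterial SOXF factor, was 15, 12 and 15 in wild type, 11, 13 and 20 in the saline mutants and 18, 25 and 17 in the treated ones. It was higher in treated mutants than in wild type without overlap (0.47, SE 0.172, limma adjusted p 0.313), a separation found in 9.13% of all genes; 16.9% of its exon bases are shared with an opposite-strand transcript. Notch4, an endothelial Notch receptor, was 36 to 61, 47 to 63 and 57 to 73 in wild type, saline mutants and treated mutants, and Efnb2, the arterial ephrin ligand, was 30 to 38, 24 to 40 and 30 to 36. In treated against saline mutants, 5 of the 5 arterial genes had a difference above 0, with a median of 0.26 beside -0.02 over all genes, and 0 of 5 were called.

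None of the 3 venous or endocardial genes was called. Vwf, von Willebrand factor, was 50, 81 and 69 in wild type, 110, 65 and 99 in the saline mutants and 41, 69 and 62 in the treated ones. Plvap, a protein of fenestrae and of endocardium, was 12, 15 and 8 in wild type, 17, 12 and 23 in the saline mutants and 10, 11 and 12 in the treated ones. For both genes 2 of 3 saline mutants were above all other hearts, while replicate 2 lay inside their range. The differences from wild type were 0.44 for Vwf (limma adjusted p 0.33) and 0.53 for Plvap (limma adjusted p 0.323). Between treated and saline mutants they were -0.66 for Vwf (SE 0.239, limma adjusted p 0.506) and -0.57 for Plvap (SE 0.219, limma adjusted p 0.549). Without saline mutant replicate 2 the Vwf difference was -0.89, and without the 3 libraries with Xist it was -0.37. The authors' deposited table selected Vwf in this comparison, at -0.64, again by unadjusted values. Emcn, endomucin, a surface sialomucin, was 41 to 56 in wild type, 41 to 51 in the saline mutants and 33 to 44 in the treated ones. The endocardial genes Npr3, Nfatc1 and Cytl1, taken as markers of that layer, summed to 64 to 82, 66 to 101 and 67 to 77 in the same order, with overlap throughout.

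The 22 pan-endothelial genes gave no call in any comparison. Junction and adhesion genes are given first. Cdh5, which encodes VE-cadherin, was 241, 347 and 269 in wild type, 240, 224 and 233 in the saline mutants and 222, 251 and 264 in the treated ones. Saline mutants lay just under the lowest wild-type heart, with a log2 difference of -0.28 (SE 0.136, 95% interval -0.59 to 0.03, limma adjusted p 0.303), which became -0.13 without wild type replicate 2. Pecam1, the platelet and endothelial adhesion molecule, was 229, 317 and 250, then 229, 207 and 275, then 230, 259 and 241 in wild type, saline mutants and treated mutants, with full overlap. Cldn5, claudin-5 of tight junctions, was 26, 28 and 18 in wild type, 16, 17 and 20 in the saline mutants and 30, 24 and 17 in the treated ones. Its difference in saline mutants was -0.40 (limma adjusted p 0.256), with 1 wild-type heart inside the mutant range. Esam, another junction molecule, was 82 to 93 in wild type, 73 to 82 in the saline mutants and 86 to 94 in the treated ones, and the treated hearts lay above the saline mutants (0.23, SE 0.102, limma adjusted p 0.592). Icam2, an adhesion ligand for leukocytes, was 25 to 32, 19 to 29 and 22 to 23, and in treated mutants it lay below wild type without overlap (-0.32, limma adjusted p 0.322). Ecscr, a regulator of endothelial migration, was 11 to 20, 10 to 17 and 12 to 14.

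Of the growth factor receptors, Kdr, the main VEGF receptor, was 174, 294 and 176 in wild type, 179, 153 and 157 in the saline mutants and 163, 194 and 207 in the treated ones. Wild type replicate 2 stood far above the other hearts, and the log2 difference of -0.35 had a 95% interval from -0.80 to 0.09 (limma adjusted p 0.372). Flt1, the VEGF decoy receptor, had the same mean in wild type and saline mutants, 158, with values of 118 to 202 and 152 to 164, and 163 to 236 in treated mutants. Tek, the angiopoietin receptor, was 96, 121 and 92 in wild type, 85, 70 and 92 in the saline mutants and 63, 90 and 90 in the treated ones. The treated hearts lay just below wild type (-0.35, SE 0.173, limma adjusted p 0.467). Its partner Tie1 was 147 to 179, 151 to 170 and 129 to 177. Ptprb, the phosphatase that restrains Tek, was 169 to 263, 216 to 223 and 150 to 261. Eng, the TGF-beta co-receptor endoglin, was 149 to 190 in wild type, 148 to 194 in the saline mutants and 169 to 236 in the treated ones.

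The remaining receptors and secreted factors were not called either. S1pr1, the receptor for sphingosine-1-phosphate that stabilises vessels, was 100, 108 and 123 in wild type, 104, 107 and 117 in the saline mutants and 125, 143 and 126 in the treated ones. Treated hearts were above both saline groups without overlap, by 0.26 over saline mutants (SE 0.105, limma adjusted p 0.571) and by 0.25 over wild type (SE 0.113, limma adjusted p 0.414). Robo4, a receptor that limits vessel leak, was 42 to 54, 45 to 57 and 57 to 64, higher in treated mutants than in wild type by 0.29 (limma adjusted p 0.393). Ramp2, the subunit that makes the adrenomedullin receptor, was 47 to 49, 38 to 52 and 41 to 44; 33.4% of its exon bases are shared with Vps25 on the same strand, so its value is uncertain. Egfl7, a secreted endothelial matrix protein, was 58 to 67, 49 to 73 and 51 to 86, Mmrn2, an endothelial matrix glycoprotein, was 52 to 74, 47 to 57 and 53 to 63, and Nos3, endothelial nitric oxide synthase, was 19 to 29, 19 to 23 and 19 to 26. For Nos3, 25.2% of exon bases are shared with an opposite-strand transcript.

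None of the transcription factors of endothelial identity was called. Erg, an ETS factor needed for junctions, was 33, 56 and 40 in wild type, 36, 33 and 40 in the saline mutants and 23, 39 and 41 in the treated ones. Ets1, a further ETS factor, was 92 to 148, 88 to 123 and 81 to 110. The SOXF factor gene Sox7 was 32, 41 and 39 in wild type, 26, 29 and 37 in the saline mutants and 27, 31 and 33 in the treated ones, and Sox18 was 41 to 43, 30 to 44 and 40 to 54. Among these 4 factors, Sox7 had the largest difference between saline mutants and wild type, at -0.28 (95% interval -0.64 to 0.08, limma adjusted p 0.379).

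Treated mutants were compared with saline mutants to ask what the treatment changes. None of the 3 groups was given a vector without the editor, so editor, vector and dose cannot be told apart here. No endothelial gene was called, where 0.0293% of 13636 genes were (4 genes, with 0.0147% higher and 0.0147% lower). At an unadjusted p under 0.05, 4 of the 35 were higher (Apln, Sema3g, Esam and S1pr1) and 2 lower (Vwf and Plvap), together 6 of 35, beside 3.53% of all genes higher, 4.76% lower and 8.29% in either direction. The 18 alternative fits called none of the 35. Libraries did not overlap for 4 of the 35, all higher (the same 4 genes), beside 5.48% of all genes higher, 4.34% lower and 9.82% in either direction. Of the 35, 23 had a difference above 0, where 46% of all genes did, with a median of 0.10 beside -0.02. This median was 0.16 without treated replicate 1, 0.21 without saline mutant replicate 3 and 0.23 without the 3 libraries with Xist. The 95% interval lay within a 2-fold change for 32 of 35 genes, the others being Apln, Vwf and Plvap.

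Treated mutants were also compared with wild type, where 0 of 35 genes were called, with 0.989% of 13554 genes called in either direction, 0.863% higher and 0.125% lower. At an unadjusted p under 0.05, 2 genes were higher (Sox17 and Robo4) and 2 lower (Apln and Icam2), beside 7.74% and 4.78% of all genes, or 12.5% in either direction. Libraries did not overlap for 3 of the 35 that were higher (Sox17, Robo4 and S1pr1), beside 9.13% of all genes, and for 4 that were lower (Apln, Tek, Icam2 and Ramp2), beside 5.43%, or 14.6% in either direction. The median difference was -0.07 beside 0.01 over all genes, with 24 of 35 below 0 where 48.6% of all genes were. Leaving out wild type replicate 2 moved it to 0.01. None of the 18 alternative fits called any of the 35 here. Summed over the 35 genes, the level was 2576 to 3314 in wild type, 2479 to 2880 in the saline mutants and 2570 to 2923 in the treated ones, and these ranges overlap.

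A wider list of 66 genes that act with the members was read in the same fits: ligands and partners, Notch and ephrin genes, transcription factors, activation genes and lymphatic markers. In saline mutants against wild type, 1 of 60 tested was called higher and 2 lower, beside 4.56% and 3.15% of all genes. The list's counts are thus below the background for higher and near it for lower calls, and the 3 called genes are given as single genes. Pgf, placental growth factor, a ligand of Flt1, fell from 9, 9 and 13 in wild type to 3, 4 and 3 in saline mutants (log2 difference -1.38, SE 0.194, limma adjusted p 0.00334), called in 17 of 17 alternatives that tested it. In treated mutants it was 6, 6 and 7, between the saline groups without overlap, as Apln was. Both genes were singled out for their calls in these same saline mutants, so this shared order is not independent of that choice. Lrg1, a secreted glycoprotein that acts on TGF-beta signalling in vessels, fell from 41, 31 and 43 to 20, 24 and 17 (-0.88, SE 0.169, limma adjusted p 0.0148) and was 28, 31 and 26 in treated mutants. Its call was lost without wild type replicate 1 (0.0779), without wild type replicate 3 (0.0611), without the 3 libraries with Xist (0.11) and with no variance floor (0.0599).

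Sphk1, a kinase that makes the ligand of S1pr1, rose from 2 in each wild-type heart to 5 in each saline mutant (1.0, SE 0.168, limma adjusted p 0.00818) and was 7, 6 and 5 in treated mutants. These values are small whole numbers, tied within both saline groups. The error of the saline comparison thus comes from the rounding floor and the variance shared across genes, not from a spread between libraries. With no variance floor its SE was 0.0381. The call was lost without saline mutant replicate 2 (0.0517) and without the 3 libraries with Xist (0.0784). In treated mutants against wild type it was also called (1.21, SE 0.159, limma adjusted p 0.026), but only in 10 of 17 alternatives. It was not called there without wild type replicate 1, 2 or 3 (0.0975, 0.0905 and 0.0898), without treated replicate 1 or 2 (0.0765 and 0.0871), without the 3 libraries with Xist (0.229) or with a replicate block (0.0757). Of 59 partner genes tested there, Sphk1 was the 1 called, beside 0.989% of all genes. Between treated and saline mutants limma called 0 of 60, beside 0.0293%. These counts of calls are near those of all genes. At an unadjusted p under 0.05, 6 of the 60 were higher and 0 lower between treated and saline mutants. The shares of all genes were 3.53% and 4.76%, so the higher count lay above its background and the lower count below.

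Of the genes on this list that were not called, a few are given that were chosen after their values were seen. The main VEGF ligand gene, Vegfa, was 127, 153 and 131 in wild type, 168, 176 and 209 in the saline mutants and 235, 221 and 192 in the treated ones. Both mutant groups were above wild type without overlap, by 0.42 (limma adjusted p 0.0749) and 0.65 (limma adjusted p 0.0625), and neither difference passed the test. Separations of this kind held for 12.8% and 9.13% of all genes. Vegfb lay the other way, at 273, 231 and 234, then 195, 209 and 172, then 208, 190 and 167 (-0.36 in saline mutants, limma adjusted p 0.111). Angpt1, the activating ligand of Tek, was 41, 23 and 27 in wild type, 18, 21 and 19 in the saline mutants and 16, 20 and 24 in the treated ones (-0.59 in saline mutants, limma adjusted p 0.136). Lpl, the enzyme that Gpihbp1 holds, was 3904 to 4736, 3961 to 4226 and 4179 to 4511. The Notch target Heyl was 42 to 61, 62 to 75 and 53 to 73, with saline mutants above wild type (0.42, limma adjusted p 0.156), whereas Hey1 was 11 to 12, 10 to 14 and 13 to 19.

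Markers of some other cell types differed between the groups. Erythroid genes summed to 104 to 313 in wild type, 69 to 85 in the saline mutants and 140 to 158 in the treated ones. Smooth muscle markers summed to 228 to 370, 138 to 152 and 193 to 218, most of it from Acta2, which was called lower in saline mutants (-1.09, SE 0.177, limma adjusted p 0.00716); Tagln was listed at 0 in 8 of 9 libraries. Of the erythroid genes, Hba-a2 and Alas2 were also called lower in saline mutants (-1.15 and -1.35, limma adjusted p 0.0411 and 0.0359). Both are low, at 6, 6 and 3 and at 9, 11 and 4 in wild type. Hba-a1, Hbb-bs and Hbb-bt were also lower but not called (-1.36, -1.41 and -1.41, limma adjusted p 0.0516, 0.0534 and 0.0542). Wild type replicate 3 had an erythroid sum of 104, beside 278 and 313 in replicates 1 and 2. In the erythroid and smooth muscle sums, saline mutants were lowest and treated mutants higher than saline mutants. Fibroblast markers summed to 1101 to 1516, 1628 to 2477 and 1247 to 1544, and macrophage markers to 182 to 247, 204 to 381 and 168 to 256, both with their highest value in saline mutant replicate 3. The fibroblast sum of every saline mutant was above that of all other hearts, but most of this sum is Dcn. Of the 6 fibroblast markers 1 was called higher, Col1a1 (0.93, SE 0.189, limma adjusted p 0.0193), beside 4.56% of all genes. In all, 5 of the 6 lay above 0 and 1 below (Dpt, -0.19), and Lum and Tcf21 overlapped wild type. Pericyte markers summed to 1322 to 1580, 1185 to 1464 and 1122 to 1428, and cardiomyocyte markers to 43389 to 50220, 43261 to 53176 and 46175 to 48797. The cardiomyocyte sum is mostly Myh6 and Actc1 and hides shifts of single genes. In saline mutants Tnnt2, Tnni3 and Pln lay below wild type without overlap (-0.33, -0.50 and -0.41) and Actc1 above it (0.32). Such separations held for 8.78% and 12.8% of all genes. Myh6, Myl2 and Ryr2 overlapped, and none of the 7 was called (smallest limma adjusted p 0.0505). The part of these other cell types in the result for Apln was not tested. Lymphocyte markers summed to at most 3 in any library and adipocyte markers to at most 1; 3 of 6 and 3 of 4 of them had no row in the tables used here.

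**Figure D4:**
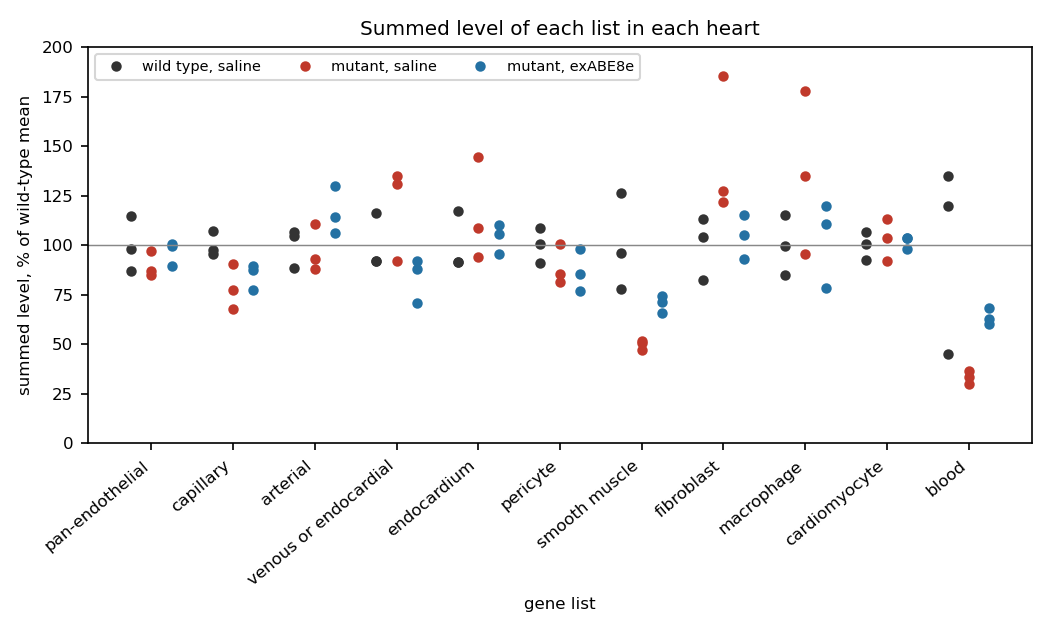
Points are the summed level of each gene list in each heart, as a percent of the wild-type mean, on an axis from 0; colours mark the 3 groups. The pan-endothelial, arterial and pericyte sums overlap between all groups, while the smooth muscle and erythroid sums of the saline mutants lie below all other hearts. Most of the smooth muscle sum is Acta2.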

How the data were processed

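Values of 9 libraries of mouse heart poly(A) RNA were read from 3 full tables and 3 shorter tables of selected genes. Per the submitters' processing notes, HISAT2, HTSeq, DESeq2 and the mm10 build were used; gene annotation, strand setting and unit are not given in the sources used here. The deposited library values were taken as a score: whole numbers with library totals from 999152 to 999382, which are not read counts, so depth is unknown and precision rests on 3 libraries per group. The authors' mean signal was not used. The authors' deposited log2 fold changes are printed only where named. The authors' column of adjusted p-values equalled, within 1e-06, the unadjusted normal p-value of their statistic for every gene with a value, so it was not used. All genes they selected were under 0.05 in that column, with absolute log2 fold changes of at least 0.586. Their selection is thus read as resting on unadjusted p-values and a fold-change limit.

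Each pair of groups was fitted with limma 3.58.1 (R 4.3.3) on log2(value + 1), for genes with a mean of at least 1 over the 6 libraries. Fold changes on this scale understate those of low genes. Residual variances were floored at the rounding variance (0.0833 on the value scale), and prior degrees of freedom came from genes with a mean of at least 30. The fit was run on simulated data in which genes varied independently, so shifts of whole libraries were not covered there. Calls are at a Benjamini-Hochberg adjusted p under 0.05 over all genes tested. Separate animals are not stated for the replicates, so p-values measure the spread between these libraries. Members, lists and settings were chosen with earlier results of these data known. The rule for named genes took all 35 members, with library values for those called in any comparison or not overlapping between wild type and saline mutants and at least 1 of each role, and the called genes of the other pathway lists. The other pathway genes named (such as Vegfa and Epas1) were chosen after their values were seen. Positions come from GENCODE M21 and promoters from RefSeq, both on GRCm38, the assembly that mm10 names. Alternatives covered scaling, pseudocount, filter, variance step, all groups in 1 fit, a replicate block and left-out libraries.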

Additional observations from a re-analysis of the deposited data

How the results depend on the processing

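The number of endothelial genes called in saline mutants against wild type was 1 in 16 of 18 alternatives, 2 with upper-quartile scaling (Apln and Dll4) and 0 with limma's trend and no variance floor. Leaving out 1 library gave 1 in each case. In both comparisons of treated mutants the number was 0 in all 18 alternatives. With 1 library left out, the median difference of the 35 genes ranged from -0.27 to -0.07 in saline mutants against wild type, from 0.08 to 0.21 in treated against saline mutants and from -0.16 to 0.01 in treated mutants against wild type. Single-gene results were recomputed for 22 differences. The 5 that were called (Apln, Pgf, Lrg1 and Sphk1 in saline mutants, Sphk1 in treated mutants against wild type) kept their call in 73 of 87 alternatives and lost it in 14, of which 9 were for Sphk1, 4 for Lrg1 and 1 for Apln. The 17 that were not called had no call to lose, and 1 (Dll4) gained one. Of these differences 0 reversed, and the cause of each change was not tested. The replicate numbers showed no consistent pairing of the hearts. Same-numbered libraries had correlations of their deviations from -0.271 to 0.454, and no comparison had all 3 above 0.1. In treated mutants against wild type they were 0.454, 0.11 and 0.005. With 3 libraries per group this cannot exclude a pairing or a batch by replicate number. A fit with the replicate block gave 1, 0 and 0 endothelial genes called, with 824, 35 and 35 genes called in all in place of 1051, 4 and 134, and medians of -0.16, 0.10 and -0.07. The filter at a mean of 10 gave no value for Pgf and Sphk1. Without read counts, counting error at values near 10, such as those of Apln in saline mutants, could not be computed.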

Other observations

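The genes given here were chosen after their values were seen. Lymphatic endothelial markers gave no call. Prox1, the transcription factor of lymphatic identity that cardiomyocytes also express, was 53 to 75 in wild type, 42 to 57 in the saline mutants and 37 to 54 in the treated ones. Lyve1, a hyaluronan receptor shared with macrophages, was 22 to 26, 20 to 31 and 20 to 33. Mmrn1 was 12 to 14 in wild type and 15 to 17 in saline mutants, without overlap (limma adjusted p 0.268), a separation found in 12.8% of all genes.

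Of 10 genes that mark activated or anticoagulant endothelium, 8 were tested in the comparisons with saline mutants. Against wild type, saline mutants had 4 above 0 and 4 below, with 1 called lower (Lrg1), beside 3.15% of all genes. In treated against saline mutants 6 were above 0, with a median of 0.22, and limma called 0. Of the 8, 3 were higher (Sele, Lrg1 and Thbd) and 0 lower at an unadjusted p under 0.05. The shares of all genes were 3.53% and 4.76%. Sele never exceeded 3 in either mutant group, which is near the floor, and its libraries overlapped. Vcam1, a leukocyte adhesion molecule, was 17 to 27, 19 to 40 and 20 to 24 in wild type, saline mutants and treated mutants. Tfpi, the inhibitor of the tissue factor pathway, was 87, 93 and 79 in wild type, 57, 46 and 70 in the saline mutants and 59, 58 and 74 in the treated ones, with limma adjusted p-values of 0.054 and 0.208 against wild type. Thbd, thrombomodulin, was 73 to 86 in the saline mutants and 92 to 107 in the treated ones, without overlap (limma adjusted p 0.439), as 5.48% of all genes were. Epas1, the hypoxia-inducible factor rich in endothelium, was 385, 394 and 448 in wild type, 340, 349 and 312 in the saline mutants and 378, 450 and 388 in the treated ones, with saline mutants below both other groups and no call (limma adjusted p 0.147 and 0.561). These separations held for 8.78% of all genes against wild type and 5.48% against treated mutants.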
